A study of Homo sapiens with 40 samples.

Results

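The expression of 52 genes of the mitotic spindle, the kinetochore and mitotic chromosomes was followed through 24 RNA-seq libraries of breast epithelial and breast cancer cells. The members were taken by symbol, through the Ensembl identifiers and GENCODE names, from the 60708 genes of the count tables. They fell into 8 roles: 8 checkpoint and mitotic kinases with their partners, 4 chromosomal passenger proteins, 10 centromere and kinetochore proteins, 10 kinesins, 5 spindle-associated proteins, 6 regulators of mitotic entry and anaphase, 3 cytokinesis proteins, and 6 condensin and mitotic chromosome proteins.

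The study covered 8 groups of 3 libraries each. MI denotes MCF-10A, an immortalised and not transformed mammary epithelial line, and MII denotes MCF-10AneoT, the same line transformed by HRAS. Both were grown as spheres in ultra-low attachment wells and either left unstimulated (MI Ctrl, MII Ctrl) or stimulated with TGFβ1 at 2.5 ng/ml for 16 h (MI TGFβ, MII TGFβ). The other groups were MDA-MB-231, a triple-negative breast cancer line, grown in monolayer: parental cells (WT), cells in which SLUG (SNAI2) had been targeted by a CRISPR/Cas9 ribonucleoprotein and expanded from sorted cells as clones (SLUG KO), cells given a scrambled siRNA (Csi), and cells given siRNAs against SMAD2, SMAD3 and SMAD4 together (siSMAD2/3/4), the siRNA groups being transient transfections. The labels give no TGFβ stimulation for the MDA-MB-231 groups, and the labels call the libraries biological replicates without saying whether cultures or clones were separate, so p-values measure the spread between these libraries.

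In mitosis, kinetochores built on centromeric chromatin attach the chromosomes to spindle microtubules, the spindle checkpoint holds anaphase until every attachment is made, and condensin with topoisomerase II compacts and untangles the sister chromatids. Most of these genes are transcribed together late in the cell cycle and are silenced in resting cells, through the cell cycle homology region (CHR) read by the DREAM and MuvB complexes and through CCAAT boxes read by NF-Y. Their summed mRNA level is therefore widely used as a marker of proliferation. In bulk RNA, fewer cycling cells and less RNA of these genes per cell cannot be told apart.

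The promoters of 5 members with a CHR, CCAAT or both are shown, and none of the class with neither element. PLK1, CDC20 and TOP2A carry both. SMC4, with a CHR without CCAAT, and PTTG1, with CCAAT without a CHR, stood apart in spheres. Each run is the RefSeq window of GRCh38.p14 from 250 bases before to 50 bases after the gene's start, written 5′ to 3′ on the gene's strand. Capitals mark TTTGAA or TTCGAA (CHR) and CCAAT, including their reverse complements TTCAAA and ATTGG, and in PTTG1 a CCAAT and an ATTGG overlap. PLK1 lies at chr16:23678639-23678938 (+), CDC20 at chr1:43358731-43359030 (+), TOP2A at chr17:40417847-40418146 (-), SMC4 at chr3:160399400-160399699 (+) and PTTG1 at chr5:160421605-160421904 (+).
PLK1: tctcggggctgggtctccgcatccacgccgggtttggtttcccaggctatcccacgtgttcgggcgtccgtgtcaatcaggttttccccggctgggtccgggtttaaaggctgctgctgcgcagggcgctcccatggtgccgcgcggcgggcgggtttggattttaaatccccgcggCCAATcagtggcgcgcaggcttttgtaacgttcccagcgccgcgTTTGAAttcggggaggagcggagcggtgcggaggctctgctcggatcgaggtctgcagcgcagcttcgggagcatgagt
CDC20: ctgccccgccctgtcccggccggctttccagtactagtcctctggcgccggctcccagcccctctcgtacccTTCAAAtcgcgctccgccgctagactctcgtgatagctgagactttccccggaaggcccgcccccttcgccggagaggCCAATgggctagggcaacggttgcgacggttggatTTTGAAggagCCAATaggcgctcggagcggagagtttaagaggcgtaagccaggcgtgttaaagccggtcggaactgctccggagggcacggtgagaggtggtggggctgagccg
TOP2A: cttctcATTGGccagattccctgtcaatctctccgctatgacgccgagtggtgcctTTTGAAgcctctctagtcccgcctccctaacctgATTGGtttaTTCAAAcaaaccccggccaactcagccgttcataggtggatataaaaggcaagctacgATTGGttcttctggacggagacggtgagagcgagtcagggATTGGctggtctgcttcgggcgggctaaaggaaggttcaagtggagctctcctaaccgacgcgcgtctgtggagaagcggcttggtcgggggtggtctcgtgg
SMC4: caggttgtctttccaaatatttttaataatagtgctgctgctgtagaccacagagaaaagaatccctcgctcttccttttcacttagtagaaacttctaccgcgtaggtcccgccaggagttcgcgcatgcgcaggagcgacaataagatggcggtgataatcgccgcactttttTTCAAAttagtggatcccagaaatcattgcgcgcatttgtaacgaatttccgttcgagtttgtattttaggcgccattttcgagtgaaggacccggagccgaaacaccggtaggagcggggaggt
PTTG1: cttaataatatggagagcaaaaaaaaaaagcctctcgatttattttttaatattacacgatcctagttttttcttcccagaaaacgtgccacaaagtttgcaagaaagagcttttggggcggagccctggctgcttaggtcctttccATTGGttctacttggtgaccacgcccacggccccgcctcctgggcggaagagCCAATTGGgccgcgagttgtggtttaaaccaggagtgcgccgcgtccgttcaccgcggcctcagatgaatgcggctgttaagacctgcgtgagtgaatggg

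Promoter windows were matched for 44 of the 52 members, the unmatched ones being AURKA, BIRC5, BUB3, CENPM, RACGAP1, TPX2, TTK and UBE2C, and for 6 members with several windows the first listed was read. A CHR on either strand was present in 33 of the 44 windows (75%), against 16.6% of 27305 promoters. CCAAT was present in 32 (72.7%), against 35.7%, and both elements together in 25 (56.8%), against 6.58%. Neither element was found in 4 windows, those of CENPE, CENPI, KIF2C and CDC25C. In 20 members (45.5%) CCAAT occurred 2 or more times, against 11.3% of all promoters, and TOP2A held 4 copies. The E-box CACCTG, the sequence that SLUG binds, was in 8 member windows (18.2%) against 20.6% of all, and CAGAC, the letters that SMAD3 and SMAD4 bind, in 17 (38.6%) against 45%. Such a match is a description of the letters in this window and not of a bound site.

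Library totals ranged from 14124688 to 38406952 counts, and values are given as CPM, counts scaled to a common library size with TMM factors. HRAS mRNA was 216, 223 and 223 CPM in MII Ctrl against 41.2, 39.6 and 41.5 in MI Ctrl. SMAD2 fell from 91.4, 91.6 and 88.6 in Csi to 23.6, 24.2 and 24.1 in siSMAD2/3/4, and SMAD3 and SMAD4 were also lower in all 3 siSMAD2/3/4 libraries than in any Csi library. SNAI2 mRNA was 63.6, 57.8 and 64.3 CPM in the libraries labelled SLUG KO against 30.2, 20.9 and 33.7 in WT, the opposite order to the label, although an edited gene can keep its transcript and RNA then does not check the knockout. The basal epithelial regulator TP63 stood at 0.728, 0.469 and 0.667 CPM in MII Ctrl against 51.5, 53.4 and 48.8 in MI Ctrl, and of the 5 basal markers, KRT5, KRT17 and TP63 were lower in MII Ctrl than in MI Ctrl, at -2.49, -1.95 and -6.42 on the log2 scale, and KRT14 and CDH1 higher, at 2.42 and 0.11. TGFβ raised 4 of the 5 in MI and all 5 in MII. The summed CPM of the 5 basal epithelial markers ran from 909.7 to 947.9 in MII Ctrl, from 2118 to 2236 in MII TGFβ, from 1940.0 to 1986 in MI Ctrl and from 3557 to 3844 in MI TGFβ. PTPRC and CD3E stayed under 1 CPM in every library, VWF stood at 0.0662, 0.268 and 0.222 CPM in MII Ctrl against 1.51, 1.45 and 1.04 in MI Ctrl, and PECAM1 stood at 102.8, 106.2 and 105.2 in MII Ctrl against 9.73, 10.8 and 8.88 in MI Ctrl. WT replicate 2 stood apart from the other WT libraries (r 0.957 and 0.952 over genes, against 0.989 between the others), so SLUG KO results are given with and without it. Counting ignored strand, and 34 members share no exon base with another gene. PRC1 shares 61.9% of its exon bases with another annotated gene, NCAPG 33.7% with LCORL and SMC4 22% with TRIM59, and PTTG1, KIF4A and UBE2C have near-identical copies, so the values of these 6 are less certain.

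The members were far more abundant in the monolayer cancer cells than in the spheres. The median log2(CPM + 0.5) over the 52 members ran from 7.04 to 7.56 in the 3 WT libraries, from 6.87 to 6.97 in SLUG KO, from 6.80 to 6.89 in Csi and from 6.23 to 6.24 in siSMAD2/3/4. Among spheres it ran from 4.34 to 4.46 in MI TGFβ, from 3.97 to 4.02 in MI Ctrl, from 3.87 to 3.89 in MII TGFβ and from 2.15 to 2.31 in MII Ctrl. Neighbouring groups in this order did not overlap, apart from SLUG KO and Csi. The siRNA libraries carry another batch label than the other groups, and spheres differ from monolayers, so no test was made across these sets. MII Ctrl was the lowest of the 8 groups for 49 of 52 members and WT the highest for 42. Of the other 10, 8 were highest in SLUG KO, 1 in Csi and 1, HMMR, in MI TGFβ. The shares over all genes were not counted, so these counts are a description only.

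**Figure D1:**
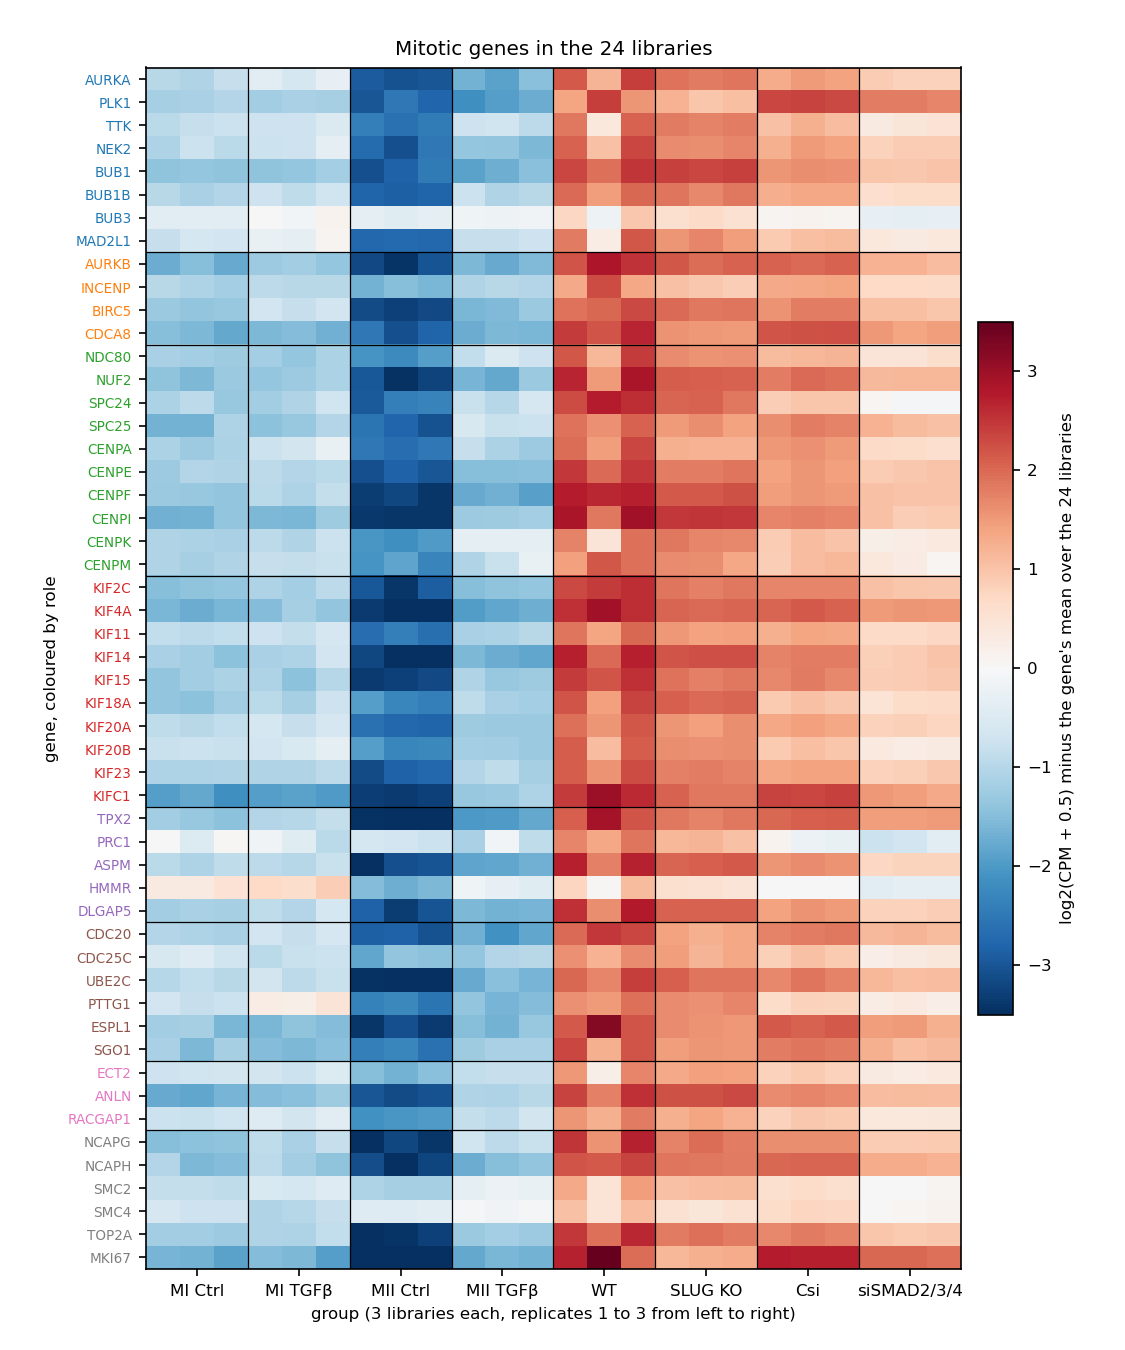
Heatmap of the 52 members (rows, coloured by role) in the 24 libraries (columns, 3 per group), as log2(CPM + 0.5) minus the gene's own mean over the libraries. Red marks levels above that mean, which fill the MDA-MB-231 columns, and the darkest blue falls in the MII Ctrl columns, the lowest group for 49 members.

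Members followed each other closely across the 8 group means. The correlation of a member with the mean of the others reached 0.999 for KIF2C, a kinesin that removes faulty microtubule attachments, and was lowest for HMMR (0.587), PRC1 (0.731), BUB3 (0.775) and SMC4 (0.825). These are correlations over 8 groups that mostly follow the difference between spheres and monolayer, and are given as a description. On the scale of CPM per kilobase of exon, TOP2A was the most abundant member in Csi (111.9), SLUG KO (121.1) and WT (173.6), whereas BUB3 led in MI Ctrl (19.7), MII Ctrl (20) and MII TGFβ (23.1) and PTTG1 in MI TGFβ (33.1). SMC4 (12.4), ECT2 (7.66) and SMC2 (7.01 CPM per kilobase) followed BUB3 in MII Ctrl. PRC1, a microtubule bundler of the central spindle, had the lowest value on this scale in all 8 groups, between 0.10 in MII Ctrl and 0.88 in WT. Since 61.9% of its exon bases are shared with another gene, its rank may not give its abundance, and this was not tested.

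Without TGFβ, mitotic genes were lower in HRAS-transformed spheres than in MI-spheres almost without exception. Of 52 members tested, 50 were lower in MII Ctrl (adjusted p under 0.05, edgeR's quasi-likelihood test, adjusted by Benjamini-Hochberg across every gene in the fit, as for each adjusted p here), where 32.5% of all 17862 genes tested were lower, and 1, SMC4, was higher, where 31.7% of all genes were. The median log2 difference of the members was -1.87, against 0.02 over all genes tested. The remaining member was BUB3, with a difference of 0.03 (SE 0.039, adjusted p = 0.517). Of the 50 lower members, SPC25 passed the filter on low counts only through the MI Ctrl libraries, where it is high. Every role shared in the decrease: the median ran from -1.31 for the 3 cytokinesis genes to -2.12 for the 5 spindle-associated genes.

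TGFβ then raised nearly all of them in MII-spheres. Of 51 members tested, 50 were higher in MII TGFβ than in MII Ctrl (29.9% of all 16396 genes tested) and 0 were lower (27.6%), with a median log2 difference of 1.67, against -0.02 over all genes. With edgeR at an unadjusted p under 0.05, and with DESeq2, 0 members were lower too. Of the 50, SPC25 and SGO1 passed the filter on low counts only through the MII TGFβ libraries, where they are high. CDC25C, the phosphatase that activates CDK1, had a difference of 0.41 (SE 0.19, adjusted p = 0.0574), and PRC1 had too few counts to be tested. The smallest rise among the called members was that of BUB3, a checkpoint protein that also has roles outside mitosis, at 0.18 (SE 0.040, adjusted p = 0.000138).

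MI-spheres answered the same stimulus weakly. Of 52 members, 20 were higher (28.7% of all 16863 genes tested) and 2 lower (27.4%) in MI TGFβ than in MI Ctrl, at a median log2 difference of 0.16 against -0.02 over all genes. No member changed by a log2 difference of 1 or more. The count depended on the scaling: with library totals in place of TMM, 8 members were higher (19.4% of all genes) and 6 lower (37.4%), at a median of 0.02 against -0.16 over all genes. Without MI Ctrl replicate 1, 13 were higher (25.9%) and 1 lower (22.8%).

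The difference between the responses was tested as an interaction over all 12 sphere libraries. The TGFβ response was larger in MII than in MI for 49 of 52 members (12.6% of all 18591 genes tested) and smaller for 0 (9.75%), with a median difference of 1.40 on the log2 scale, against -0.001 over all genes. With edgeR at an unadjusted p under 0.05, and with DESeq2, 0 members had a smaller response in MII. The 2 negative values were those of BUB3, -0.13 (SE 0.069, adjusted p = 0.195), and PTTG1, -0.09 (SE 0.12, adjusted p = 0.681). The third member without a call was PRC1, at 0.69 (SE 0.64, adjusted p = 0.505). The MII Ctrl libraries enter this test, the TGFβ comparison in MII and the comparison of unstimulated lines, so these are not independent of each other.

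**Figure D2:**
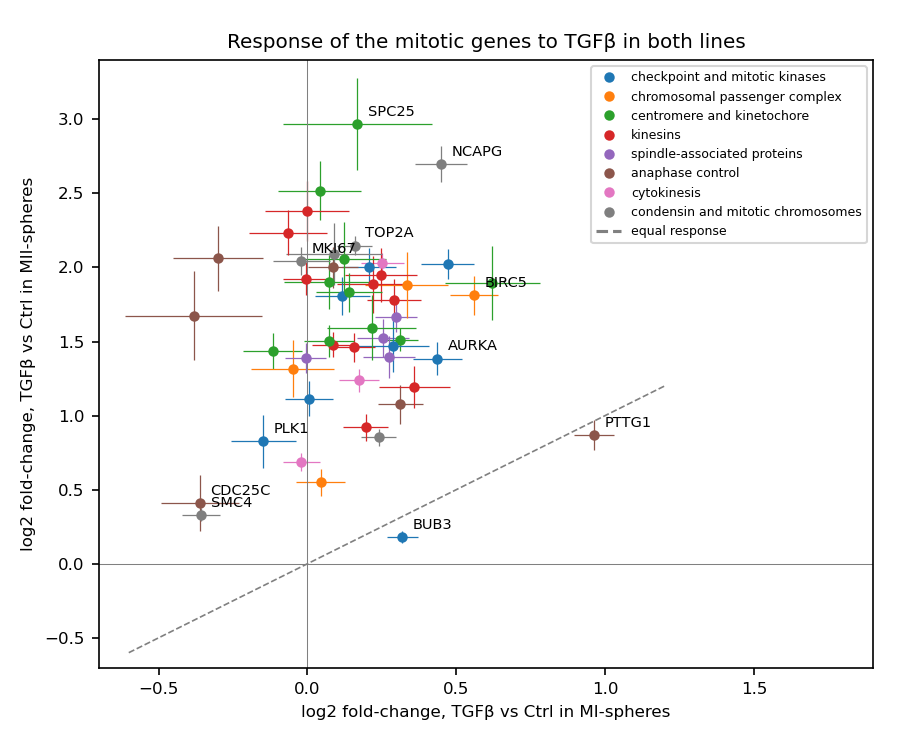
TGFβ response of the members in MI-spheres (x axis) and in MII-spheres (y axis), each a log2 fold-change with its SE as bars and coloured by role. SE was derived from the test statistic, and the dashed line marks equal responses. All points but PTTG1 and BUB3 lie above the line, and the MI values stay between -0.38 and 0.96.

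With TGFβ present in both lines, the gap mostly closed and its direction depended on the gene. Of 52 members, 8 were higher (31.1% of all 15878 genes tested) and 24 lower (31.6%) in MII TGFβ than in MI TGFβ, at a median log2 difference of -0.23 against 0.004 over all genes tested. Of the 10 centromere and kinetochore genes, 3 were higher and 3 lower, whereas 4 of 5 spindle-associated genes were lower and 0 higher, and 3 of 6 condensin and mitotic chromosome genes were higher and 1, TOP2A, lower.

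**Figure D3:**
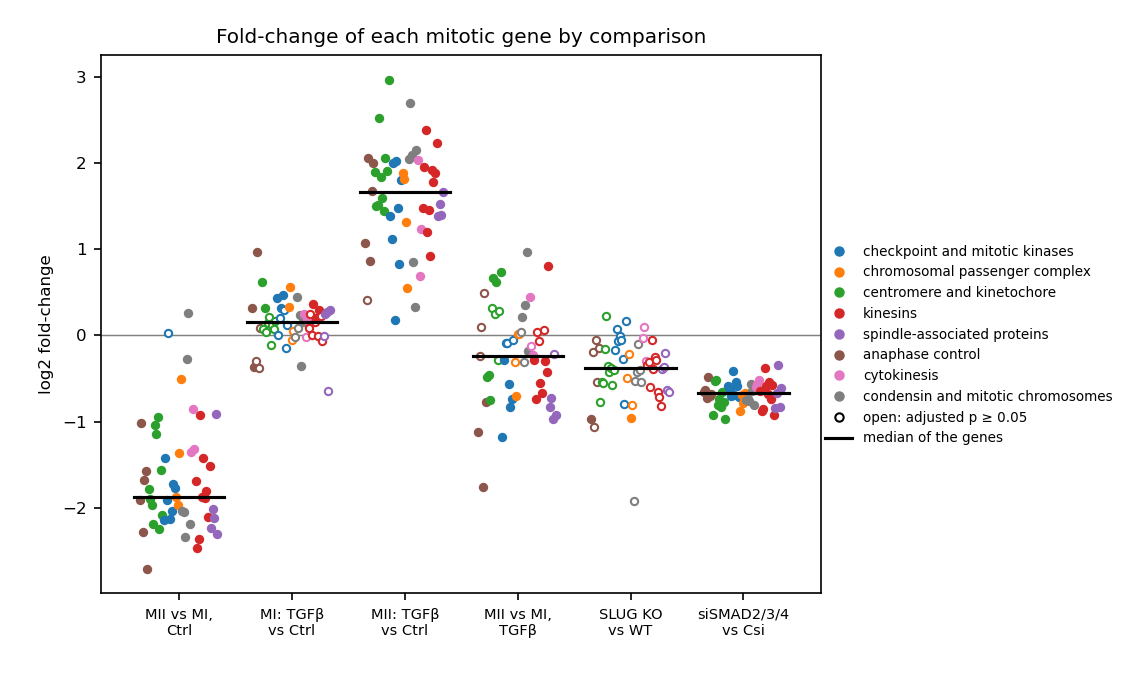
log2 fold-change of each member in 6 comparisons (x axis), coloured by role; filled points have an adjusted p under 0.05, open points do not, and black lines are medians over the members. The medians are -1.87, 0.16, 1.67, -0.23, -0.38 and -0.67 from left to right.

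Among the kinases and checkpoint proteins, AURKA, which matures centrosomes and builds the spindle, stood at 28.9, 27.3 and 32.1 CPM in MI Ctrl and at 43.8, 36.6 and 46 in MI TGFβ. MII-spheres held AURKA at 7.02, 6.36 and 6.61 CPM without and at 17.8, 15 and 20.3 with TGFβ. The 4 groups did not overlap, and MII TGFβ stayed below MI Ctrl. The AURKA log2 difference was -2.14 (SE 0.090, adjusted p = 3.84e-28) between the unstimulated lines, 1.38 (SE 0.11, adjusted p = 4.03e-15) for TGFβ in MII, 0.44 (SE 0.081, adjusted p = 0.00011) for TGFβ in MI, and -1.17 (SE 0.097, adjusted p = 2.93e-10) between the stimulated lines.

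PLK1, the kinase of mitotic entry and kinetochore attachment, stood at 9.73, 9.97 and 10.9 CPM in MI Ctrl and at 9.44, 9.95 and 9.75 in MI TGFβ. MII-spheres held PLK1 at 2.38, 3.58 and 2.89 CPM without and at 4.67, 5.53 and 6.39 with TGFβ. Its MI groups overlapped and its MII groups did not. The PLK1 difference for TGFβ was 0.83 (SE 0.18, adjusted p = 0.000132) in MII and -0.15 (SE 0.11, adjusted p = 0.239) in MI. TTK, the kinase that starts checkpoint signalling, read 13.1, 14.3 and 14.8 CPM in MI Ctrl and 15.3, 15.2 and 17.7 in MI TGFβ. MII-spheres held TTK at 4.44, 3.75 and 4.28 CPM without and at 15.2, 15.5 and 13.3 with TGFβ, so that stimulated MII libraries reached the range of the MI libraries. The TTK difference was 1.81 (SE 0.13, adjusted p = 1.56e-17) for TGFβ in MII and -0.06 (SE 0.10, adjusted p = 0.638) between the stimulated lines.

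BUB3 had the smallest range of the members over the 8 group means, 0.98 on the log2 scale, though not the smallest change in every comparison. Its CPM were 158, 160.5 and 163 in MI Ctrl, 207, 199 and 231 in MI TGFβ, 169, 155 and 165 in MII Ctrl and 188, 186 and 193 in MII TGFβ. TGFβ libraries were above Ctrl libraries in both lines, with an MI difference of 0.32 (SE 0.053, adjusted p = 3.57e-05). The other members of this role were NEK2 (centrosome separation), BUB1, BUB1B and MAD2L1 (checkpoint proteins). All 4 were lower in MII Ctrl than in MI Ctrl, by log2 differences from -2.13 for MAD2L1 to -1.42 for BUB1, and all 4 rose with TGFβ in MII, by 1.11 for BUB1 to 2.02 for MAD2L1. In MI, MAD2L1 rose by 0.47 (SE 0.089, adjusted p = 0.000138), and the values of NEK2, BUB1 and BUB1B were 0.29, 0.01 and 0.21.

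In the chromosomal passenger complex, which corrects attachments and guides cytokinesis, the kinase AURKB stood at 4.59, 5.49 and 4.52 CPM in MI Ctrl and at 6.53, 6.86 and 6.09 in MI TGFβ. MII-spheres held AURKB at 1.39, 1.07 and 1.61 CPM without and at 5.21, 4.47 and 5.3 with TGFβ. The MII Ctrl libraries lay below all others and stimulated MII libraries overlapped MI Ctrl. The AURKB difference for TGFβ was 1.88 (SE 0.22, adjusted p = 2.33e-10) in MII and 0.33 (SE 0.14, adjusted p = 0.0468) in MI. BIRC5 (survivin) read 15.6, 14.7 and 15.5 CPM in MI Ctrl and 24.5, 22.5 and 24.4 in MI TGFβ. MII-spheres held BIRC5 at 4.04, 3.65 and 4.0 CPM without and at 12.7, 13.2 and 15.8 with TGFβ. BIRC5 rose in both lines, with differences of 0.56 (SE 0.080, adjusted p = 5.37e-06) in MI and 1.81 (SE 0.13, adjusted p = 4.84e-17) in MII and an interaction of 1.26 (SE 0.15, adjusted p = 1.2e-08). INCENP, the scaffold, and CDCA8 (borealin) rose in MII by 0.55 and 1.32, with MI values of 0.04 and -0.05.

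At the kinetochore, NDC80, which binds microtubules, stood at 11.7, 11.1 and 10.7 CPM in MI Ctrl and at 11.1, 9.95 and 11.8 in MI TGFβ. MII-spheres held NDC80 at 5.83, 5.15 and 6.56 CPM without and at 14.1, 18.3 and 15.6 with TGFβ. Stimulated MII libraries were the highest of the 12. The NDC80 difference was -0.95 (SE 0.12, adjusted p = 3.63e-10) between the unstimulated lines and 0.62 (SE 0.11, adjusted p = 4.33e-05) between the stimulated lines. SPC25, another subunit of the NDC80 complex, read 1.54, 1.54 and 2.55 CPM in MI Ctrl and 1.87, 2.06 and 2.64 in MI TGFβ. MII-spheres held SPC25 at 0.596, 0.435 and 0.278 CPM without and at 3.86, 3.27 and 3.33 with TGFβ. Its fitted difference of 2.97 (SE 0.31, adjusted p = 8.18e-12) starts from under 1 CPM in all 3 MII Ctrl libraries, and it passed the filter on low counts through the stimulated ones.

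CENPA, the histone variant that marks the centromere, stood at 3.74, 3.28 and 3.79 CPM in MI Ctrl and at 5.0, 5.42 and 7.11 in MI TGFβ. MII-spheres held CENPA at 1.13, 0.937 and 1.11 CPM without and at 4.8, 3.8 and 3.33 with TGFβ. CENPA rose in both lines, by 0.62 (SE 0.16, adjusted p = 0.00246) in MI and 1.9 (SE 0.25, adjusted p = 5.55e-09) in MII. CENPE, a kinetochore kinesin that moves chromosomes to the spindle equator, read 19.4, 23.2 and 22.5 CPM in MI Ctrl and 24.8, 23 and 24.5 in MI TGFβ. MII-spheres held CENPE at 5.17, 6.26 and 5.5 CPM without and at 16.5, 16.5 and 16.9 with TGFβ, where the stimulated libraries stayed below every MI library. The CENPE difference for TGFβ was 1.5 (SE 0.11, adjusted p = 1.72e-16) in MII and 0.07 (SE 0.083, adjusted p = 0.479) in MI.

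CENPF, a large coat protein of the outer kinetochore, stood at 60.8, 59.3 and 57.4 CPM in MI Ctrl and at 77.5, 71.4 and 84.7 in MI TGFβ. MII-spheres held CENPF at 14.6, 16 and 13.9 CPM without and at 44, 47.1 and 40.4 with TGFβ. No 2 of the 4 groups overlapped. The CENPF difference was -1.97 (SE 0.066, adjusted p = 1.08e-32) between the unstimulated lines and 1.51 (SE 0.075, adjusted p = 8.95e-24) for TGFβ in MII. The other genes of this role were NUF2 and SPC24 of the NDC80 complex and CENPI, CENPK and CENPM of the inner kinetochore. All 5 were lower in MII Ctrl than in MI Ctrl, by log2 differences from -2.24 for NUF2 to -1.04 for CENPK, and all 5 rose with TGFβ in MII, by 1.59 for CENPM to 2.52 for CENPI. None of the 5 passed the test in MI, with differences from 0.04 to 0.22.

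Of the kinesins, KIF2C stood at 13.4, 14.3 and 14.8 CPM in MI Ctrl and at 18.1, 16.6 and 20.3 in MI TGFβ. MII-spheres held KIF2C at 4.5, 3.18 and 4.78 CPM without and at 13.5, 14.3 and 14.7 with TGFβ. The stimulated MII libraries returned to the MI Ctrl range. The KIF2C difference for TGFβ was 1.78 (SE 0.14, adjusted p = 2.03e-16) in MII and 0.29 (SE 0.091, adjusted p = 0.00976) in MI. KIF20A, which carries the passenger complex to the central spindle, read 31.6, 30.2 and 32.5 CPM in MI Ctrl and 38.6, 33.5 and 39.2 in MI TGFβ. MII-spheres held KIF20A at 9.27, 8.44 and 8.0 CPM without and at 24.6, 23.7 and 23.9 with TGFβ. Its MII TGFβ libraries remained below every MI library, and its difference between the stimulated lines was -0.55 (SE 0.077, adjusted p = 1.51e-06).

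KIFC1, a minus-end motor that clusters extra centrosomes, went beyond the MI level: it stood at 7.64, 8.33 and 6.49 CPM in MI Ctrl and at 7.63, 7.93 and 7.24 in MI TGFβ. MII-spheres held KIFC1 at 2.65, 2.51 and 2.72 CPM without and at 11.7, 12.1 and 14 with TGFβ. The KIFC1 difference was 2.23 (SE 0.15, adjusted p = 5.07e-19) for TGFβ in MII, -0.07 (SE 0.13, adjusted p = 0.683) for TGFβ in MI and 0.81 (SE 0.12, adjusted p = 4.98e-06) between the stimulated lines. The other 7 kinesins were KIF11 and KIF15 (spindle bipolarity), KIF4A (chromosome arms and midzone), KIF18A (microtubule length), and KIF14, KIF20B and KIF23 (cytokinesis). All 7 were lower in MII Ctrl than in MI Ctrl, by log2 differences from -2.47 for KIF14 to -0.92 for KIF18A, and all 7 rose with TGFβ in MII, by 0.92 for KIF20B to 2.38 for KIF15. Of these, KIF18A at 0.36 and KIF20B at 0.20 also rose in MI.

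TPX2, which activates AURKA on spindle microtubules, stood at 37.2, 34.2 and 32.2 CPM in MI Ctrl and at 42.7, 43.3 and 49 in MI TGFβ. MII-spheres held TPX2 at 7.55, 6.96 and 6.39 CPM without and at 21.1, 21.9 and 24.7 with TGFβ. The 4 groups did not overlap, and MII TGFβ stayed below MI Ctrl. The TPX2 difference was -2.31 (SE 0.086, adjusted p = 1.4e-30) between the unstimulated lines, 1.67 (SE 0.10, adjusted p = 7.06e-20) for TGFβ in MII and -0.92 (SE 0.080, adjusted p = 7.3e-10) between the stimulated lines. ASPM (spindle poles), HMMR (a microtubule-binding hyaluronan receptor) and DLGAP5 (kinetochore fibres) followed TPX2: MII Ctrl was lower than MI Ctrl by -2.24, -2.12 and -2.02, TGFβ raised them in MII by 1.39, 1.4 and 1.52, and between the stimulated lines the differences were -0.83, -0.97 and -0.72, all 3 passing the test each time. PRC1 was counted at no more than 1.25 CPM in any sphere library, and its difference between the unstimulated lines was -0.91 (SE 0.37, adjusted p = 0.0264).

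Among the regulators of mitotic entry and anaphase, CDC20, the activator of the anaphase-promoting complex, stood at 22.3, 21.6 and 20.9 CPM in MI Ctrl and at 28.6, 26.3 and 30.5 in MI TGFβ. MII-spheres held CDC20 at 5.89, 6.03 and 5.17 CPM without and at 14.1, 10.3 and 12.7 with TGFβ. The CDC20 difference for TGFβ was 1.07 (SE 0.13, adjusted p = 4.5e-10) in MII and 0.31 (SE 0.076, adjusted p = 0.00147) in MI, and MII TGFβ remained below MI TGFβ by -1.13 (SE 0.10, adjusted p = 1.36e-09). UBE2C, the ubiquitin-conjugating enzyme of that complex, read 19.5, 21.4 and 19.8 CPM in MI Ctrl and 24.9, 20.7 and 22.7 in MI TGFβ. MII-spheres held UBE2C at 3.11, 3.05 and 3.06 CPM without and at 11.2, 14 and 12.5 with TGFβ. It had the largest deficit of all members in unstimulated MII-spheres, -2.71 (SE 0.11, adjusted p = 2.66e-28), and rose with TGFβ in MII by 2.0 (SE 0.14, adjusted p = 1.17e-17).

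ESPL1 (separase, the protease that cuts cohesin) stood at 6.6, 6.94 and 4.99 CPM in MI Ctrl and at 4.94, 5.74 and 5.28 in MI TGFβ. MII-spheres held ESPL1 at 1.06, 1.47 and 1.11 CPM without and at 5.35, 4.73 and 6.12 with TGFβ. The ESPL1 difference for TGFβ was 2.06 (SE 0.22, adjusted p = 1.05e-11) in MII and -0.30 (SE 0.15, adjusted p = 0.088) in MI, and the interaction was 2.37 (SE 0.25, adjusted p = 1.62e-09). PTTG1 (securin, the inhibitor of separase) took another course: it read 33.2, 30.3 and 31.3 CPM in MI Ctrl and 63.4, 60.6 and 72 in MI TGFβ. MII-spheres held PTTG1 at 9.87, 10.6 and 8.56 CPM without and at 20, 16.7 and 18.2 with TGFβ. Its rise was 0.96 (SE 0.068, adjusted p = 1.79e-10) in MI and 0.87 (SE 0.10, adjusted p = 3.13e-10) in MII, with the interaction at -0.09 (SE 0.12), and the deficit of MII-spheres was -1.68 (SE 0.082, adjusted p = 2.65e-25) without and -1.76 (SE 0.079, adjusted p = 4.42e-15) with TGFβ.

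CDC25C read 6.79, 7.42 and 6.18 CPM in MI Ctrl, 5.11, 5.78 and 5.88 in MI TGFβ, 2.58, 3.68 and 3.5 in MII Ctrl and 3.72, 4.8 and 5.03 in MII TGFβ. It fell in MI, by -0.36 (SE 0.13, adjusted p = 0.0249), and was lower in MII Ctrl than in MI Ctrl by -1.02 (SE 0.15, adjusted p = 4.87e-08). SGO1 (shugoshin, the guard of centromeric cohesin) rose in MII by 1.67 (SE 0.30, adjusted p = 4.41e-06) at levels between 0.556 and 2.47 CPM in the MII libraries. Like SPC25, it passed the filter on low counts through the stimulated libraries.

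ANLN (anillin, a scaffold of the contractile ring) stood at 42.3, 40.3 and 45.9 CPM in MI Ctrl and at 50, 51.7 and 59.9 in MI TGFβ. MII-spheres held ANLN at 17.4, 15.9 and 16.9 CPM without and at 68.5, 67.5 and 72.3 with TGFβ, the highest values of the 12 libraries. The ANLN difference was 2.03 (SE 0.066, adjusted p = 7.29e-32) for TGFβ in MII, 0.25 (SE 0.071, adjusted p = 0.00485) for TGFβ in MI and 0.44 (SE 0.065, adjusted p = 3.43e-06) between the stimulated lines. ECT2 and RACGAP1, which switch on RhoA at the division plane, rose in MII by 0.69 and 1.24, with MI values of -0.02, which did not pass the test, and 0.17, which did.

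NCAPG, a condensin I subunit, stood at 15.2, 15.6 and 16 CPM in MI Ctrl and at 23.3, 19.6 and 24.6 in MI TGFβ. MII-spheres held NCAPG at 2.85, 4.32 and 3.61 CPM without and at 26.6, 22.8 and 25.1 with TGFβ. The NCAPG difference for TGFβ was 2.7 (SE 0.12, adjusted p = 3.89e-26) in MII and 0.45 (SE 0.088, adjusted p = 0.000211) in MI. TOP2A, which untangles sister chromatids, read 91.3, 90.8 and 88.2 CPM in MI Ctrl and 102.1, 99.9 and 117.6 in MI TGFβ. MII-spheres held TOP2A at 17.9, 19.3 and 21.6 CPM without and at 86.2, 93.2 and 88 with TGFβ, on both sides of the MI Ctrl values. The TOP2A difference was -2.19 (SE 0.060, adjusted p = 1.05e-36) between the unstimulated lines, 2.15 (SE 0.064, adjusted p = 1.89e-33) for TGFβ in MII and 0.16 (SE 0.058, adjusted p = 0.0249) for TGFβ in MI. MKI67, which coats mitotic chromosomes, read 32.9, 32.3 and 27.8 CPM in MI Ctrl and 36.1, 34.4 and 27.1 in MI TGFβ. MII-spheres held MKI67 at 7.28, 8.37 and 6.56 CPM without and at 29.4, 33.6 and 32.3 with TGFβ, so that the difference for TGFβ was 2.04 (SE 0.094, adjusted p = 3.82e-25) in MII and -0.02 (SE 0.096, adjusted p = 0.871) in MI.

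The core condensin ATPases, shared by condensin I and II, departed from this pattern. SMC4 stood at 90.7, 82.8 and 82.5 CPM in MI Ctrl and at 66.1, 67.6 and 77.8 in MI TGFβ. MII-spheres held SMC4 at 100.4, 100.6 and 102.8 CPM without and at 132.7, 126.6 and 132.0 with TGFβ. All 6 MII libraries were above all 6 MI libraries, TGFβ lowered SMC4 in MI by -0.36 (SE 0.063, adjusted p = 6.01e-05) and raised it in MII by 0.33 (SE 0.044, adjusted p = 5.73e-09), and the interaction was 0.70 (SE 0.077, adjusted p = 2.94e-09). SMC2, its partner, read 56.3, 55.9 and 53.6 CPM in MI Ctrl and 68.8, 64.9 and 73.5 in MI TGFβ. MII-spheres held SMC2 at 47.2, 44.6 and 44.2 CPM without and at 81.2, 86.4 and 83.5 with TGFβ. The SMC2 deficit of MII Ctrl was -0.28 (SE 0.055, adjusted p = 1.63e-05), a small one among the members, and SMC2 was higher in MII TGFβ than in MI TGFβ by 0.35 (SE 0.057, adjusted p = 1.07e-05). NCAPH, the kleisin of condensin I, had -2.33 (SE 0.19, adjusted p = 9.7e-16) between the unstimulated lines and 2.09 (SE 0.21, adjusted p = 1.96e-12) for TGFβ in MII. Both had the direction seen for NCAPG. Unlike NCAPG, NCAPH did not pass the test for TGFβ in MI, at 0.09 (SE 0.16, adjusted p = 0.656). Nor did it pass between the stimulated lines, at -0.31 (SE 0.16, adjusted p = 0.094), where NCAPG was higher in MII.

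**Figure D4:**
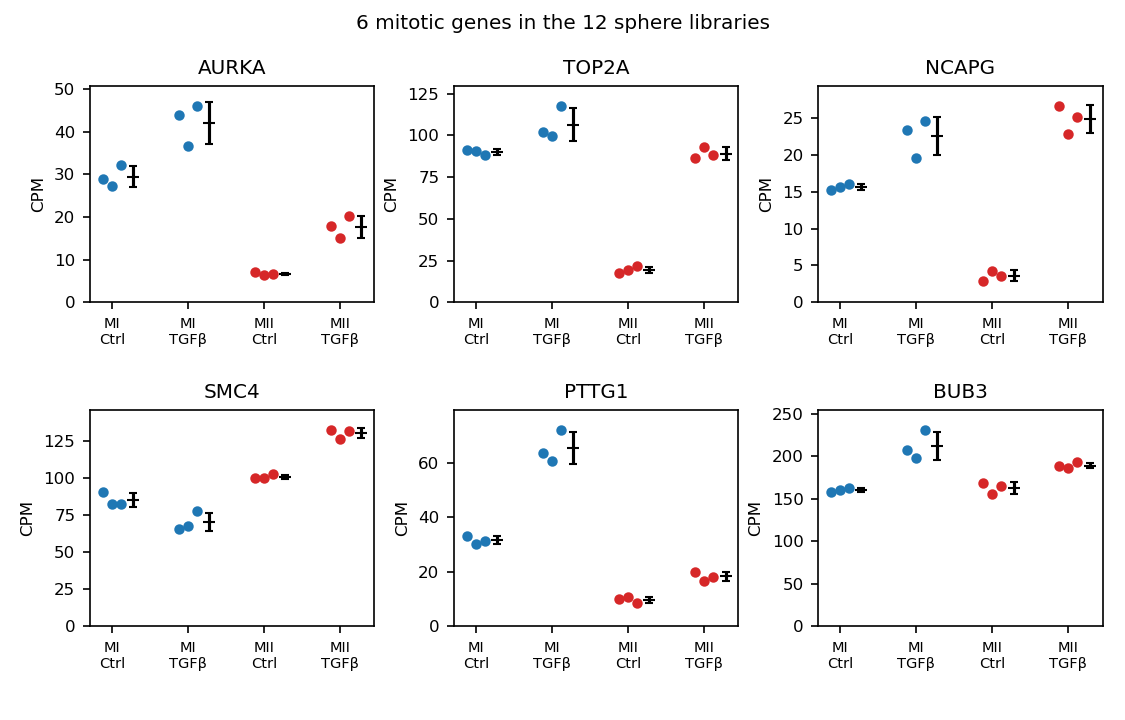
CPM (y axis, from 0) of AURKA, TOP2A, NCAPG, SMC4, PTTG1 and BUB3 in the 12 sphere libraries; points are libraries, and the black mark with bars is the mean ± SD of 3. TOP2A and NCAPG are lowest in MII Ctrl; with TGFβ, TOP2A lies around the MI Ctrl values and NCAPG above them, PTTG1 rises in both lines, and SMC4 is higher in all MII libraries than in any MI library.

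Basal epithelial markers moved with TGFβ and with line as given above, and the part of such a shift in these results was not tested. Split by the promoter window, the median log2 difference for TGFβ was 1.60 over 32 members with a CHR and 1.78 over 11 without, and between the unstimulated lines it was -1.88 over 33 and -1.87 over 11.

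In MDA-MB-231 cells, siRNAs against SMAD2, SMAD3 and SMAD4 lowered every member. All 52 were lower in siSMAD2/3/4 than in Csi (19.7% of all 17696 genes tested) and 0 were higher (16.3%), with a median log2 difference of -0.67 against 0.004 over all genes. With edgeR at an unadjusted p under 0.05, and with DESeq2, 0 were higher too, and DESeq2 placed 51 lower. The differences were narrow in range, from -0.97 for SPC24 to -0.34 for HMMR, and the role medians ran from -0.56 (cytokinesis) to -0.76 (centromere and kinetochore). The labels name 1 flow cell for these 6 libraries, whereas the deposited file names put the 3 Csi libraries and siSMAD2/3/4 replicate 3 on another flow cell than siSMAD2/3/4 replicates 1 and 2. With the flow cell of the file names as a term, 50 members were lower, at a median of -0.66.

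The members with the smallest adjusted p were TOP2A, KIFC1 and ASPM. TOP2A fell from 689, 745 and 706 CPM in Csi to 419.5, 399.9 and 408 in siSMAD2/3/4, a log2 difference of -0.81 (SE 0.038, adjusted p = 8.7e-17). KIFC1 fell from 157, 155 and 161 to 87.9, 84.7 and 76.7 CPM, a difference of -0.93 (SE 0.046, adjusted p = 1.96e-16). ASPM fell from 235, 256 and 238 to 133.0, 138 and 138 CPM, a difference of -0.84 (SE 0.042, adjusted p = 2.74e-16). In each case the 3 depleted libraries lay together and well below the 3 controls, though the share of all genes so placed was not counted.

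Kinases fell alike under SMAD depletion. AURKA was 140.2, 161 and 152 CPM in Csi and 104.4, 100 and 99.3 in siSMAD2/3/4, at -0.58 (SE 0.045, adjusted p = 5.5e-12). PLK1 was 116.2, 118.4 and 114.4 and 78.7, 79.4 and 74.6 CPM, at -0.59 (SE 0.044, adjusted p = 2.21e-12). TTK was 52.1, 61.2 and 54.8 and 31.7, 34.4 and 36.7 CPM, at -0.72 (SE 0.063, adjusted p = 7.67e-11). These 3 values lie on both sides of the members' median. AURKB was 70.8, 66.2 and 70.2 and 39.1, 38.7 and 35.6 CPM, at -0.88 (SE 0.053, adjusted p = 2.33e-14). BIRC5 was 117.7, 137 and 136 and 82.1, 82.7 and 78.2 CPM, at -0.69 (SE 0.049, adjusted p = 6.73e-13).

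At the kinetochore, CENPA was 25.6, 27.6 and 25.4 CPM in Csi and 14.2, 13.9 and 13.4 in siSMAD2/3/4, at -0.93 (SE 0.072, adjusted p = 6.27e-12). NDC80 was 57.2, 59 and 60.6 and 35.8, 36.2 and 40.3 CPM, at -0.66 (SE 0.056, adjusted p = 4.44e-11). CENPE was 127.0, 139.8 and 128.3 and 88.7, 91.4 and 94.8 CPM, at -0.53 (SE 0.046, adjusted p = 7e-11). The control and depleted libraries were apart for all 3. KIF2C was 126.5, 127.2 and 127.8 and 78.6, 76.7 and 74.8 CPM, at -0.73 (SE 0.043, adjusted p = 7.92e-15). KIF20A was 152, 162 and 151 and 103.3, 106.8 and 100 CPM, at -0.59 (SE 0.043, adjusted p = 1.54e-12). TPX2 was 355, 375 and 380.5 and 240.4, 243 and 248 CPM, at -0.61 (SE 0.039, adjusted p = 7.71e-14). None of these 6 genes had overlapping groups. The share of all genes without overlap was not counted, so this is a description only.

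Of the anaphase regulators, CDC20 was 155, 162 and 169 CPM in Csi and 102.3, 106.2 and 100.2 in siSMAD2/3/4, at -0.66 (SE 0.043, adjusted p = 1.12e-13). UBE2C was 126.7, 145 and 132.7 and 88.6, 81.9 and 83.4 CPM, at -0.68 (SE 0.047, adjusted p = 4.59e-13). ESPL1 was 72.5, 68.1 and 73.3 and 44.9, 46 and 38.4 CPM, at -0.73 (SE 0.057, adjusted p = 6.79e-12). PTTG1, which had stood apart in spheres, fell with the others, by -0.48 (SE 0.050, adjusted p = 2.38e-09). ANLN was 452, 475 and 452 and 306, 308 and 303 CPM, at -0.59 (SE 0.038, adjusted p = 5.74e-14).

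Condensin and chromosome genes followed. NCAPG was 136, 135.8 and 133.9 CPM in Csi and 80.5, 80.7 and 82.9 in siSMAD2/3/4, at -0.74 (SE 0.043, adjusted p = 7.58e-15). SMC2 was 148, 156 and 149 and 101.8, 98.8 and 108.1 CPM, at -0.56 (SE 0.044, adjusted p = 7.81e-12). SMC4 was 214, 231 and 226 and 139, 143 and 148 CPM, at -0.65 (SE 0.042, adjusted p = 1.03e-13). MKI67, with 699.5, 680.5 and 686 CPM in Csi and 419, 416 and 396 in siSMAD2/3/4, changed by -0.75 (SE 0.038, adjusted p = 2.83e-16). SMC2 and SMC4 departed from the other members in spheres. Here SMC4 had a value near the members' median of -0.67, and the loss of SMC2 was smaller than that median. The smallest losses were those of HMMR, -0.34 (SE 0.086, adjusted p = 0.00224), KIF18A, -0.38 (SE 0.062, adjusted p = 1.01e-05), and BUB3, -0.41 (SE 0.039, adjusted p = 5.19e-10), and PRC1, at no more than 1.34 CPM in these libraries, changed by -0.82 (SE 0.32, adjusted p = 0.0463).

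In the libraries labelled SLUG KO, mitotic genes tended to lower values than in WT, but few passed the test with all 6 libraries. Of 52 members, 2 were lower (1.89% of all 17428 genes tested) and 0 higher (1.45%), at a median log2 difference of -0.38 against -0.05 over all genes; with edgeR at an unadjusted p under 0.05, 19 were lower (11.1% of all genes) and 0 higher (8%), and with DESeq2 6 were lower (2.89% of the 22773 genes with an adjusted p) and 0 higher (2.43%). The 2 were CDCA8, with 56.4, 54 and 53.5 CPM in SLUG KO and 104.6, 87 and 121.4 in WT, a difference of -0.96 (SE 0.18, adjusted p = 0.0339), and CDC20, with 123.5, 110.5 and 119.6 and 186, 260 and 234 CPM, a difference of -0.97 (SE 0.18, adjusted p = 0.035). In both, all SLUG KO libraries lay below all WT libraries, though the share of all genes so placed was not counted.

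The outcome depended on WT replicate 2. It was lower than both other WT libraries for 39 members and higher than both for 11, and its log2 deviation from their mean had an SD over members of 0.73, against 0.18 for the difference between replicates 1 and 3. The shares of all genes on either side were not counted, so 39 and 11 are not read as particular to the members. The deviation ran with the GC content of the exons (r 0.75 over 52 genes, against -0.21 for the difference between replicates 1 and 3), and not with exon length (r -0.04); these genes share the same libraries, so this is a description. Without WT replicate 2, 43 members were lower (14.4% of all 17909 genes tested) and 0 higher (16.8%), at a median of -0.48 against -0.01 over all genes. Leaving out any other of the 6 libraries gave 0 or 1 lower members. With a GC content trend removed from all 6 libraries, 23 were lower (5.54%) and 0 higher (6.48%), at a median of -0.44. The summed CPM of the 4 mesenchymal carcinoma markers ran from 2784 to 3600.0 in WT and from 2176 to 2255 in SLUG KO. Of these, FN1 alone passed the test with all 6 libraries, with 718, 976 and 628 CPM in WT and 83.3, 82.8 and 97 in SLUG KO, at -3.17 (SE 0.23, adjusted p = 0.00182). VIM, AXL and ZEB1 stood at -0.12, -0.19 and 0.04 in that fit. Without WT replicate 2, 2 of the 4 mesenchymal markers were lower and 0 higher, with differences from -2.95 to 0.12. Of the 5 basal markers, KRT5 was listed at 0 in all 6 libraries. TP63, KRT17 and CDH1 had group means of at most 2.16 CPM. With all 6 libraries they stood at 0.98, -1.39 and 0.19, none passing the test. Without WT replicate 2, 1 of the 3 basal markers tested was higher and 0 lower. The part of these mesenchymal and basal markers in the result was not tested.

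**Figure D5:**
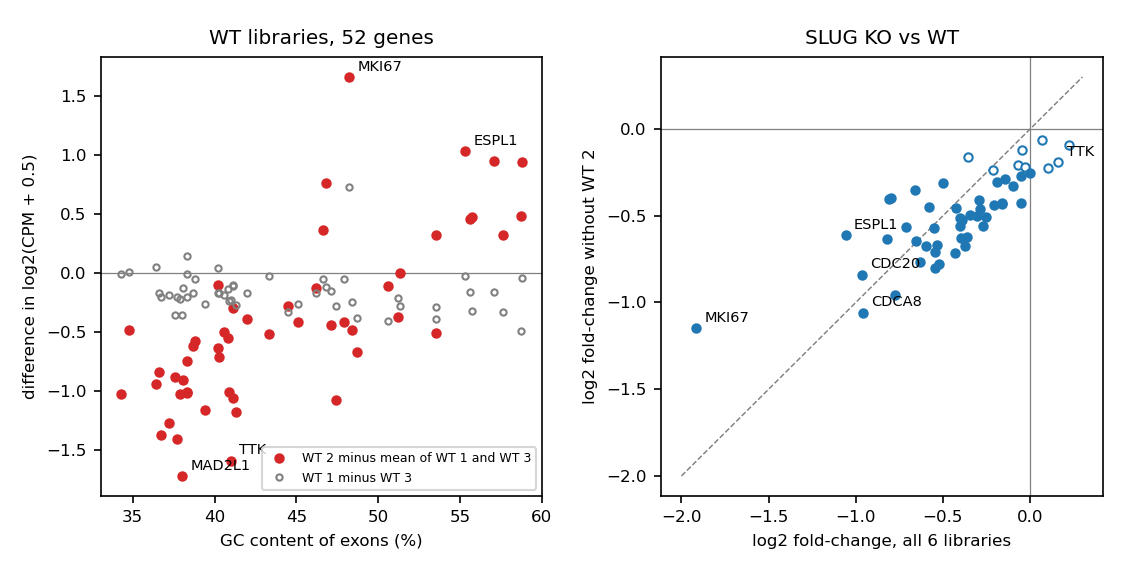
Left: difference in log2(CPM + 0.5) of the 52 members against the GC content of their exons (%), for WT replicate 2 minus the mean of replicates 1 and 3 (filled) and for replicate 1 minus replicate 3 (open). Right: log2 fold-change of SLUG KO against WT with all libraries (x axis) and without WT replicate 2 (y axis), filled where the adjusted p without it is under 0.05; all 52 values without it lie below 0, from -1.15 to -0.06.

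MKI67 shows the size of the effect of this library. It stood at 666, 1637 and 401 CPM in WT and at 231, 247 and 254 in SLUG KO, so that WT replicate 2 was the highest of the 6. The MKI67 difference was -1.92 (SE 0.49, adjusted p = 0.094) with all libraries and -1.15 (SE 0.15, adjusted p = 3.22e-05) without it. TTK was displaced the other way, with 92.6, 33 and 108.4 CPM in WT and 90.5, 86.6 and 88.6 in SLUG KO, at 0.16 (SE 0.39, adjusted p = 0.845) with all libraries and -0.19 (SE 0.088, adjusted p = 0.112) without WT replicate 2. CENPK, ECT2 and BUB1 also had positive differences with all libraries, 0.22, 0.10 and 0.07, and stood at -0.10, -0.225 and -0.06 without it. Neither TTK nor any of these 3 passed the test in either fit.

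AURKA stood at 251, 130.5 and 305 CPM in WT and 212, 202 and 209 in SLUG KO, at -0.43 (SE 0.091, adjusted p = 0.00183) without WT replicate 2. PLK1 stood at 59.6, 121.7 and 66.5 and 52.9, 44.7 and 47.2 CPM, at -0.40 (SE 0.096, adjusted p = 0.00516). AURKB stood at 77.2, 120 and 96.6 and 76.3, 65.2 and 70.2 CPM, at -0.31 (SE 0.10, adjusted p = 0.0279). Replicate 2 was the lowest WT library for AURKA and the highest for PLK1 and AURKB. BIRC5 stood at 149, 159 and 198 and 156, 144 and 145 CPM, at -0.24 (SE 0.10, adjusted p = 0.0923). BUB3 had 345, 186 and 407 and 312, 334 and 305 CPM, at -0.26 (SE 0.094, adjusted p = 0.0477).

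CENPA stood at 35.1, 25 and 45.7 CPM in WT and 21.2, 21 and 20.7 in SLUG KO, at -0.95 (SE 0.11, adjusted p = 7.63e-06) without WT replicate 2, a large change among the members. NDC80 stood at 120.4, 58.8 and 144 and 83.5, 79.6 and 80.6 CPM, at -0.71 (SE 0.089, adjusted p = 1.79e-05). CENPE stood at 265, 189 and 264 and 166, 164 and 174 CPM, at -0.67 (SE 0.083, adjusted p = 1.75e-05). For NDC80 the second WT library alone lay below SLUG KO, whereas the CENPA and CENPE groups did not overlap. KIF2C stood at 194, 213 and 235 and 142, 133.1 and 139.6 CPM, at -0.66 (SE 0.15, adjusted p = 0.0744) with all libraries and -0.64 (SE 0.090, adjusted p = 5.35e-05) without replicate 2. KIF20A stood at 225, 175 and 268 and 175, 160.5 and 182 CPM, at -0.52 (SE 0.092, adjusted p = 0.000425). Replicate 2 fell inside the SLUG KO range for KIF20A. KIFC1 stood at 168, 245 and 188 and 126.8, 109.6 and 109.4 CPM, at -0.64 (SE 0.090, adjusted p = 5.96e-05), and TPX2 at 372, 655 and 404 and 315, 292 and 314 CPM, at -0.35 (SE 0.086, adjusted p = 0.00557).

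Without WT replicate 2, CDC20 changed by -0.84 (SE 0.095, adjusted p = 7e-06) and CDCA8 by -1.06 (SE 0.088, adjusted p = 2.45e-07), close to their values with all libraries. UBE2C stood at 161, 129.4 and 212 CPM in WT and 169, 147 and 146 in SLUG KO, at -0.29 (SE 0.10, adjusted p = 0.0478). ESPL1 stood at 73.5, 152 and 75.2 and 51.4, 48.5 and 47.3 CPM, at -0.61 (SE 0.088, adjusted p = 7.37e-05), with replicate 2 the highest of the 6 libraries. PTTG1 stood at 161, 149 and 202 and 168, 163 and 173 CPM, and ANLN at 748, 485 and 843 and 676, 676 and 713 CPM, at -0.12 (SE 0.095, adjusted p = 0.357) and -0.22 (SE 0.092, adjusted p = 0.0831). NCAPG stood at 247, 131.2 and 284 and 146, 169 and 153 CPM, at -0.78 (SE 0.094, adjusted p = 1.38e-05). SMC2 stood at 251, 140.1 and 275 and 203, 213 and 218 CPM, at -0.33 (SE 0.086, adjusted p = 0.00855). The condensin genes thus passed the test once replicate 2 was left out, as did SMC4, with 278, 189 and 289 and 198, 185 and 199.5 CPM, at -0.56 (SE 0.083, adjusted p = 9.8e-05), and TOP2A, with 1180.1, 815 and 1324 and 749.6, 808 and 758 CPM, at -0.71 (SE 0.095, adjusted p = 3.55e-05).

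A list of 139 other genes of mitosis and S phase gave the wider setting. In MII-spheres TGFβ raised 110 (80.3%) and lowered 8 (5.84%) of the 137 tested, against 29.9% and 27.6% of all genes tested. Between the unstimulated lines 8 (5.84%) were higher and 79.6% lower in MII, against 31.7% and 32.5%. In MI-spheres 39 rose (28.5%) and 24 fell (17.5%), against 28.7% and 27.4%. The interaction was positive for 85 (61.6%) and negative for 3 (2.17%) of 138, against 12.6% and 9.75%. SMAD depletion lowered 120 of 139 (86.3%) and raised 1 (0.719%), against 19.7% and 16.3%. With all 6 libraries, 1 was lower in SLUG KO (0.719%, against 1.89%), RRM2. Without WT replicate 2, 21 of 30 kinetochore and centromere, 14 of 24 spindle, 9 of 13 condensin and cohesin and 5 of 6 cytokinesis genes were lower. So were 5 of 9 mitotic entry, 4 of 10 transcription factor, 14 of 30 S phase and 1 of 17 anaphase-promoting complex genes (all genes 14.4%). Higher in these 8 sets were 1, 0, 0, 0, 0, 1, 2 and 2 (all genes 16.8%). The median log2 difference of the list was 0.68 for TGFβ in MII, where that of the members was 1.67, -0.57 between the unstimulated lines, where the members had -1.87, 0.64 for the interaction, against 1.40, and -0.64 under SMAD depletion, against -0.67. Its 6 cytokinesis genes had medians of 1.72 for TGFβ in MII and -0.83 under SMAD depletion.

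FOXM1 and MYBL2, transcription factors of mitotic genes, also changed in spheres. FOXM1 stood at 5.4, 4.67 and 6.23 CPM in MI Ctrl, 8.07, 8.61 and 7.54 in MI TGFβ, 1.52, 1.54 and 1.83 in MII Ctrl and 4.67, 4.4 and 5.85 in MII TGFβ. MYBL2 read 10.1, 9.06 and 9.2, 13.8, 16.1 and 12.8, 2.12, 2.08 and 2.44 and 14.4, 14.3 and 16.4 CPM in the same groups. TGFβ raised FOXM1 by 1.57 (SE 0.21, adjusted p = 7.26e-09) in MII and 0.49 (SE 0.13, adjusted p = 0.0041) in MI, and MYBL2 by 2.74 (SE 0.14, adjusted p = 1.03e-22) and 0.51 (SE 0.11, adjusted p = 0.000579), with interactions of 1.1 (SE 0.24, adjusted p = 0.000559) and 2.24 (SE 0.18, adjusted p = 1.44e-12). In MDA-MB-231 cells SMAD depletion lowered FOXM1 by -0.65 and MYBL2 by -0.84.

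S phase genes, which act before mitosis, were counted in the same way. Of 30, 5 rose (28.7% of all genes) and 6 fell (27.4%) with TGFβ in MI, at a median of 0.002, and 29 rose (29.9%) in MII, at a median of 1.33. Between the unstimulated lines 29 were lower in MII (32.5%), at a median of -1.02, and under SMAD depletion all 30 were lower (19.7%), at a median of -0.92. E2F1, which drives S phase entry, fell in MI from 25, 24.7 and 25.4 to 13.7, 13 and 13.9 CPM, by -0.97 (SE 0.079, adjusted p = 1.78e-09), and rose in MII from 5.23, 5.39 and 5.56 to 17, 17.5 and 16.4 CPM, with an interaction of 2.59 (SE 0.13, adjusted p = 1.02e-18). RRM2, which makes deoxyribonucleotides, had the smallest adjusted p of the list for TGFβ in MII, at 2.97 (SE 0.073, adjusted p = 3.55e-37). Between the stimulated lines 23 of 30 S phase genes were higher (31.1% of all genes) and 1 lower (31.6%) in MII, at a median of 0.42, while the members' median was -0.23. Of 9 mitotic entry genes 4 were higher and 4 lower in that comparison, at a median of 0.20. The higher ones were PKMYT1 and WEE1, kinases that inhibit CDK1, CDC25A and CDK1, by 1.19, 0.56, 0.46 and 0.21. The lower ones were CCNB1, a partner of CDK1, at -1.44 (SE 0.077, adjusted p = 1.09e-13), and CDC25B, a phosphatase that activates it, at -2.54 (SE 0.11, adjusted p = 4.3e-15), with CCNB2 at -1.24 and CCNA2 at -0.40.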

How the data were processed

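RNA was sequenced in 24 libraries of 8 groups with 3 replicates each; the other samples of the series were not analysed here. The authors trimmed the reads with Trimmomatic, aligned them with STAR to GRCh38.p13 and counted fragments per gene with featureCounts (Subread 2.0.0, GENCODE release 38, properly paired fragments, mapping quality of at least 30, strand ignored), and deposited raw counts, with the exon length of each gene. Names came from GENCODE release 44.

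Counts were tested with edgeR 4.0.16 in R 4.3.3 (filterByExpr, TMM, glmQLFit, glmQLFTest), each comparison on its own 6 libraries and the interaction on 12, p-values adjusted by Benjamini-Hochberg across every gene in a fit and a threshold of 0.05. CPM are TMM scaled. SE is the absolute log2 difference divided by the square root of the quasi-likelihood F statistic, not a separately fitted error. The scripts were tested on simulated data. Totals of 14124688 to 38406952 counts leave members under about 1 CPM imprecise. The members and the other gene lists were chosen with earlier results of these data known. Named genes were 20 members listed by symbol, and per comparison the 3 members of lowest adjusted p on either side and the one farthest from the members' median; NEK2 and other members were named to complete each role. SPC25 and genes given as the ends of a range were picked by value.

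Alternatives were DESeq2 1.42.0 (test and size factors), library totals, other count filters, a gene length trend, a replicate block, each library left out and, chosen after seeing the data, a GC content trend.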

Additional observations from a re-analysis of the deposited data

Results flagged for a closer look

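The TGFβ response differed between the lines for most members, by the interaction test over the 12 sphere libraries. It was larger in MII than in MI for 49 members. Among the genes named by symbol, the log2 difference between the responses was 2.37 for ESPL1, 2.26 for NCAPG, 2.07 for MKI67, 2.0 for TOP2A, 1.93 for UBE2C, 1.78 for ANLN and 1.7 for TTK. It was 1.56 for NDC80, 1.56 for AURKB, 1.5 for KIF2C, 1.44 for CENPE, 1.38 for TPX2, 1.31 for KIF20A, 1.29 for CENPA and 1.26 for BIRC5. The smallest of these were 0.98 for PLK1, 0.96 for AURKA, 0.77 for CDC20, 0.70 for SMC4 and 0.62 for SMC2. SMC4 was the member called in both lines with opposite signs, lower with TGFβ in MI and higher in MII.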

How the results depend on the processing

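No member changed the sign of a called value under any alternative. In the MI comparison, DESeq2 left 1 member lower; library totals gave 8 higher, 6 lower and a median of 0.019; the length trend gave a median of 0.11, alone or with the block. The MII median was 1.53 with library totals, 1.59 with at least 10 counts in every library and 1.60 with the length trend. With library totals, 2 members were higher in unstimulated MII than MI (median -1.78), and the median between stimulated lines was -0.15. In SLUG KO, DESeq2 gave 6 lower members, no filter 1 and the GC trend 23. The cause of these shifts was not tested. Leaving out 1 library at a time gave 13 to 23 members higher, 1 to 3 lower and medians of 0.11 to 0.21 for TGFβ in MI; 50 to 51 higher and medians of 1.61 to 1.73 in MII; 7 to 10 higher, 19 to 25 lower and medians of -0.32 to -0.19 between stimulated lines; 0 to 1 negative interactions, the 1 without MI TGFβ replicate 2, and medians of 1.34 to 1.42; 0 to 43 lower and medians of -0.48 to -0.23 for SLUG KO; and 51 to 52 lower for siSMAD2/3/4. The count of 13 came without MI Ctrl replicate 1, and that of 43 without WT replicate 2.

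Samples with the same replicate number did not deviate together (correlations from -0.12 to 0.03), so the numbers were not taken as pairs. With the replicate block, and with the block and the length trend, 0 members were lower in SLUG KO; the block moved no other count of members by over 1.5 times. Depth limits members under about 1 CPM, such as PRC1 and SGO1 in MII Ctrl, and PRC1 also shares most of its exon bases with another gene.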
